A study of Mus musculus with 3 samples.

Results

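Cytosolic ribosomal protein genes code for the proteins that, together with ribosomal RNA, build the large subunit (Rpl genes) and the small subunit (Rps genes) of the ribosome in the cytoplasm. The genes were taken by symbol: every mouse gene named Rpl or Rps with a number, with or without an ending such as a, x or l, together with Rplp0, Rplp1, Rplp2 and Rpsa. This gave 84 of the 31053 mouse genes in the count matrices, 52 of the large and 32 of the small subunit. All 84 genes were found in the GENCODE vM21 annotation of the mm10 build, spread over 19 chromosomes. Of these, 83 had at least 1 UMI (unique molecular identifier, a counted transcript molecule) in each library, and Rpl10l had 0 in all 3.

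The study captured single cells from adult mouse bladder and from bladder assembloids, which are rebuilt in culture from bladder cells. The bladder library, labelled wild-type, came from a pool of 8 bladders of C57BL/6 mice at 8-9 weeks of age. The assembloid libraries came from pools of 3 assembloids each, taken 1 day and 7 days after reconstitution; the labels give no strain for them. All groups were dissociated with enzymes and captured with the 10x Genomics Chromium 3′ chemistry from polyA RNA. There was 1 library in each of the 3 groups, so no difference between groups has a replicate check and no p-value is given. Intervals below cover counting error only.

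Every ribosome carries 1 copy of most of these proteins, and their mRNAs are among the most abundant in a cell. They typically begin with a cytosine followed by a run of pyrimidines, the 5′ terminal oligopyrimidine (TOP) tract, through which growth signals acting via mTOR control their translation. A few genes have a paralogue that codes for a near-copy of the same protein and is used in particular tissues: Rpl39l is known from male germ cells, Rpl3l from heart and skeletal muscle, Rpl10l from testis, and Rps27l as a gene induced by p53. The bladder is lined by urothelium, whose basal cells carry Krt5 and whose surface cells carry Krt20, over a stroma of fibroblasts, vessels and nerves and a wall of smooth muscle.

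Coding sequences of the paralogue pairs Rpl39 and Rpl39l and Rps27 and Rps27l are printed because the largest paralogue differences below concern them, and because a read must carry differing bases to be told from its partner. They were read from GENCODE vM21 on mm10, 5′ to 3′ from the start codon, and capitals in the paralogue mark bases that differ from the parent gene at the same position. Rpl39l differed from Rpl39 at 23 of 156 bases (85.3% identity) and Rps27l from Rps27 at 61 of 255 bases (76.1% identity).
Rpl39: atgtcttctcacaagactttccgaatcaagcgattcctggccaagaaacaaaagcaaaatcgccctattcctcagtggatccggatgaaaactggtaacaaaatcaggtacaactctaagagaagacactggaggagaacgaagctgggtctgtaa
Rpl39l: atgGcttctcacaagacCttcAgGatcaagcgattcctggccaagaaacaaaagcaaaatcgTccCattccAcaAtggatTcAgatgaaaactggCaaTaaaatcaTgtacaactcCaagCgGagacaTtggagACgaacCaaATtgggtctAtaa
Rps27: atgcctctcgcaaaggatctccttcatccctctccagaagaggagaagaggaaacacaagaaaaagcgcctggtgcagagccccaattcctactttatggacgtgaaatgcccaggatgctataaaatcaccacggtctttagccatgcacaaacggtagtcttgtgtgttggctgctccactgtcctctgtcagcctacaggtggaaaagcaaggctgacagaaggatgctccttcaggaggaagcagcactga
Rps27l: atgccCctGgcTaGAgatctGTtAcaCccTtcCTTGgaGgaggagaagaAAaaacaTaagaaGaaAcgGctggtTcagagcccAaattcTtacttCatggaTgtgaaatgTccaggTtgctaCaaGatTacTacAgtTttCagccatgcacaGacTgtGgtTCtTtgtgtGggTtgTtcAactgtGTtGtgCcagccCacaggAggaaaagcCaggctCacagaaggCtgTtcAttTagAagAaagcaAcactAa

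The promoters of the members whose values differ most below are shown for the pyrimidine run at the start of transcription. Each line holds 40 bases before to 20 bases after the RefSeq start site (GRCm38.p6), on the gene's own strand, and capitals mark the longest run of C and T that begins within 20 bases of the start. Rps27l has a second RefSeq entry, at chr9:66946373-66946432 on the plus strand, which is not printed and whose longest run is 4 bases. The positions are chr3:90213629-90213688 on the minus strand for Rps27, chr9:66946046-66946105 on the plus strand for Rps27l and chr16:10170188-10170247 on the plus strand for Rpl39l. Those of the other genes are chr3:28805468-28805527 (plus) for Rpl22l1, chr14:18270967-18271026 (minus) for Rpl15, chr2:39005112-39005171 (minus) for Rpl35 and chr4:86857348-86857407 (minus) for Rps6.
Rps27: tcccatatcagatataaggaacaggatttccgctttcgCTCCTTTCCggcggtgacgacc
Rps27l: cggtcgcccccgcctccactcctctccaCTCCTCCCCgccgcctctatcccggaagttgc
Rpl39l: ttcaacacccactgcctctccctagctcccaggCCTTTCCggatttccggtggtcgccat
Rpl22l1: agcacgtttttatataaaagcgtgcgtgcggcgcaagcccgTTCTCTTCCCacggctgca
Rpl15: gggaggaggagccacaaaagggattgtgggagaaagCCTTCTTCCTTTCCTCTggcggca
Rpl35: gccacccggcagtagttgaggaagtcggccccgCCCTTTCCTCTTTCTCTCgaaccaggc
Rps6: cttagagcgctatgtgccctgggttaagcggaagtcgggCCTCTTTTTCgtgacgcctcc

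RefSeq promoter entries were found for 64 of the 84 genes, 76 promoters in all. A run of at least 8 C or T bases on the gene's strand, within 20 bases of the start, was present in 31 of these 76 (40.8%), against 16.05% of all 32851 mouse promoters. The same run of A or G bases was present in 5 (6.58%), against 17.7% of all. The 6 letters CTTTCC, searched on both strands in the same window, were found in 11 (14.5%) against 3.68%. CCGGAAG, which is bound by ETS factors such as GABP, was found on either strand of the whole promoter in 27 (35.5%) against 8.86%. AAGATGG, the core recognised by YY1, was found in 12 (15.8%) against 6.34%, and CACGTG, the E-box of MYC and USF, in 8 (10.5%) against 7.15%. A TATAAA 40 to 20 bases before the start was found in 1 (1.32%) against 2.31%. CTTTCC lies inside the pyrimidine run of several of these promoters, so those counts overlap. These are matches of letters and not measured binding sites.

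Total depth was 93560608 UMIs in the bladder library, 135955678 at 1 day and 120301672 at 7 days. The 6775, 8258 and 8172 mouse cells kept had median depths of 7543, 14937.5 and 9399 UMIs. Cells were given a class by the UMIs of marker genes, with no ribosomal protein gene in the rule, and the classes are called urothelial-like, fibroblast-like and so on. Between 2.28% and 5.13% of cells took no class, and "other mesenchymal" stands for collagen-bearing cells that took none of the more defined classes. In bladder, the urothelial list summed to 15614 CPM (a gene's share of mouse UMIs times 1000000) in urothelial-like cells and to between 141 and 268 CPM in each other class, with UMIs of all 11 of its markers in fibroblast-like, smooth muscle-like and endothelial-like cells. The fibroblast list summed to 33441 CPM in bladder fibroblast-like cells but to 2994 CPM in those of the 1-day assembloid, and the smooth muscle list to 13752 and 4873 CPM in smooth muscle-like cells. The glia list summed to 10740 and 2464 CPM, while the endothelial list summed to 7600 and 7029 CPM. Cells given 1 class name in bladder and assembloid therefore differ in the markers that gave the name, and the part of this in the results below was not tested.

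The 7-day library was not of one kind. Each of its cells was set beside its nearest neighbours among bladder and 1-day cells, in a space without ribosomal protein or mitochondrial genes. For 4367 cells (53.4%) nearly all neighbours were 1-day assembloid cells, and for 3612 cells (44.2%) nearly all were bladder cells. Only 193 cells (2.36%) lay between. The cells on the assembloid side had a median of 19848 UMIs and those on the bladder side 3325.5. The bladder and 7-day libraries shared 30 cell barcodes, the 1-day and 7-day libraries 114, and the bladder and 1-day libraries 21. The 7-day shares and member counts by class are therefore given on both sides apart, while library totals, the 1-day to 7-day composition ratios and the dividing comparisons use the whole library unless a side is named. Leaving out the cells with shared barcodes is an alternative in the closing section. The cause of the mix was not tested.

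Ribosomal protein genes gave 25.98% of all mouse UMIs of the kept bladder cells, 21.54% at 1 day and 22.68% at 7 days. Of the 84 genes, 81 reached 20 CPM in each library; Rpl39l, Rpl3l and Rpl10l were the others. Rpl13, of the large subunit, gave the most UMIs in each library, at 7560, 5748 and 6268 CPM in bladder, 1-day and 7-day cells. Rplp0 and Rplp1, which form the acidic stalk where elongation factors dock, were also among the 5 members with most UMIs in every library. The 5 also held Rpl32 and Rpl23 in bladder, Rps20 at 1 day, and Rps20 and Rpl23 at 7 days. UMIs are counted from the 3′ end, so these values do not scale with gene length. Many of these genes have near-identical processed pseudogenes in the genome, and how the authors' counting assigned such reads was not tested.

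In bladder, the summed share differed widely between cell classes. Urothelial-like cells gave 29.94% of their UMIs to these genes (2697 cells), endothelial-like cells 17.28% (1058 cells), fibroblast-like cells 15.91% (1466 cells), other mesenchymal-like cells 12.36% (311 cells), pericyte-like cells 11.61% (143 cells), smooth muscle-like cells 10.37% (512 cells) and glia-like cells 6.75% (241 cells). Among these classes, each with at least 50 cells, the highest stood 4.43-fold above the lowest. Across single cells the middle of the distribution, from the lower to the upper quartile, ran from 27.5% to 32.3% in urothelial-like, from 13.9% to 18.2% in fibroblast-like, from 8.6% to 11.4% in smooth muscle-like and from 5.2% to 7.5% in glia-like cells. These ranges did not overlap between the 4 classes. Those of endothelial-like cells, 13.7% to 19.8%, overlapped the fibroblast-like range, and those of pericyte-like (9.96% to 13.3%) and other mesenchymal-like cells (10.1% to 14.4%) overlapped the smooth muscle-like one. With the cells of a class split into 4 equal bins by UMIs, the pooled share ran from 27.3% to 31.0% over the bins in urothelial-like cells, from 15.0% to 17.1% in fibroblast-like cells and from 6.09% to 7.46% in glia-like cells. Myeloid-like cells were few (41) and gave 17.67%.

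**Figure D1:**
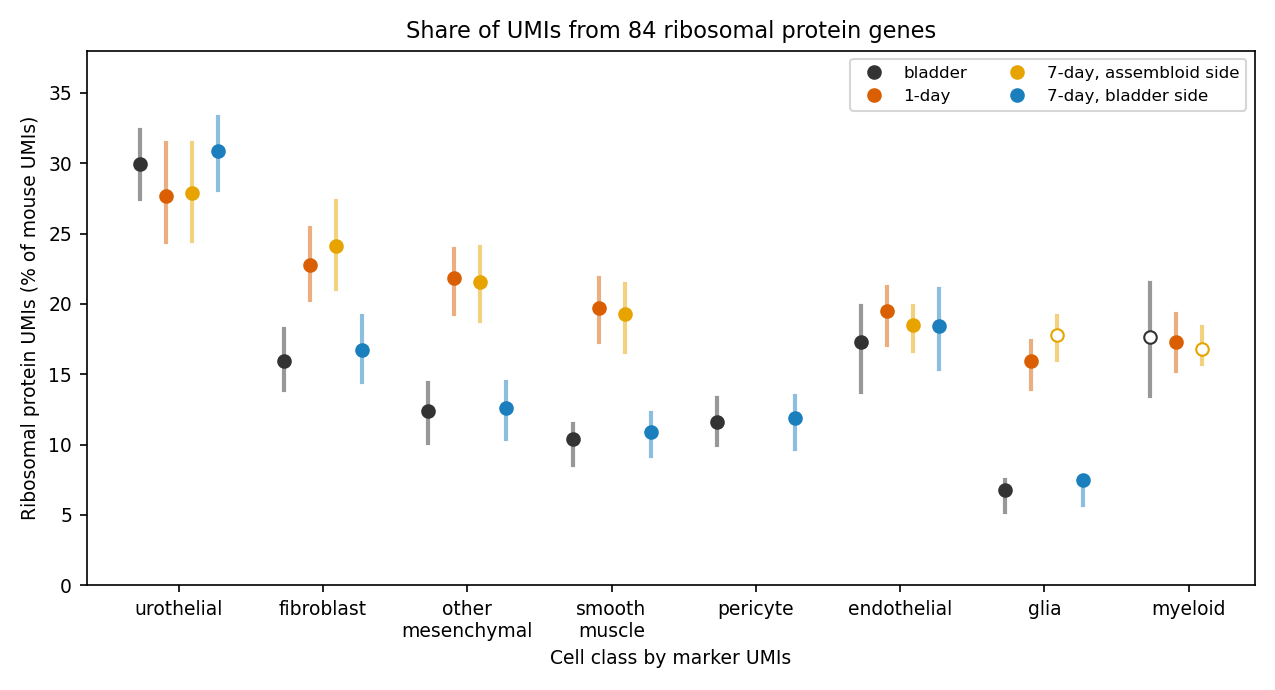
Share of mouse UMIs from the 84 ribosomal protein genes (y axis, percent of mouse UMIs) for each cell class (x axis) in the bladder, the 1-day assembloid and the 2 sides of the 7-day library; each marker is the pooled share of 1 class in 1 library. Bladder values spread from 6.75% in glia-like to 29.94% in urothelial-like cells, while 1-day values lie between 15.91% and 27.64%.

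The high share of bladder urothelium covered nearly the whole gene family. Against bladder fibroblast-like cells, 67 of the measured members stood at least 1.5-fold higher with a counting interval excluding 1, and 0 lower. Of all genes tested in that comparison, 26.2% were higher and 38.5% lower by the same rule. The median member was higher by 0.92 on the log2 scale, where the median of all genes was -0.19. Against glia-like cells, 79 members were higher and 0 lower, beside 20.1% and 48.1% of all genes. Urothelial-like cells with at least 2 UMIs of Krt20 were called Krt20 cells. Those with 0 UMIs of Krt20 and at least 2 UMIs of Krt5 per 10000 were called Krt5 cells. The rest, called cells of neither group, may still hold some UMIs of either keratin. By this rule the layers of the bladder urothelium differed little. Basal-type cells with Krt5 gave 30.41% (1298 cells), cells of neither group 30.02% (633 cells) and surface-type cells with Krt20 29.37% (766 cells). Between Krt20 and Krt5 cells, 0 members were past the fold in either direction, beside 0.488% of all genes in each.

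At 1 day the classes lay closer together. The share was 27.64% in urothelial-like cells (1431 cells), 22.80% in fibroblast-like cells (530 cells), 21.84% in other mesenchymal-like cells (3626 cells), 19.72% in smooth muscle-like cells (1390 cells), 19.48% in endothelial-like cells (443 cells) and 15.91% in glia-like cells (566 cells). The highest class stood 1.74-fold above the lowest. Among urothelial-like cells the layers lay further apart than in bladder. Cells with Krt5 gave 28.56% (927 cells) and those of neither group 25.95% (504 cells). On the assembloid side at 7 days these were 29.00% and 25.96%. No 1-day cell met the Krt20 rule, which 766 bladder cells did, so the urothelial ratio to bladder compares unlike mixes of layers by this rule. The rule asks for 2 UMIs of Krt20 at any depth, so shallow cells meet it less readily. The part of depth in this difference was not tested. Urothelial-like cells of the assembloid had a median of 4857 UMIs against 21267 in bladder, whereas fibroblast-like cells had 17160.5 against 5868.5; the part of depth in the differences between libraries was not tested beyond the thinning in the closing section. Over 4 bins of UMIs within the 1-day library the share ran from 22.5% to 23.2% in fibroblast-like and from 15.0% to 16.8% in glia-like cells.

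Set class by class against bladder, the share was 0.92-fold in urothelial-like cells (-0.12 on the log2 scale), 1.13-fold in endothelial-like (0.17), 1.43-fold in fibroblast-like (0.52), 1.77-fold in other mesenchymal-like (0.82), 1.90-fold in smooth muscle-like (0.93) and 2.36-fold in glia-like cells (1.24). The lower a class stood in bladder, the higher its ratio, which contains the bladder value as its denominator, and of these 6 classes the urothelium alone had a ratio below 1. Because these are shares of UMIs, a higher share of ribosomal protein transcripts and a lower share of others cannot be told apart. The collagen list of the other mesenchymal class summed to 34314 CPM in bladder and 12164 CPM in 1-day fibroblast-like cells. In glia-like cells it was also lower at 1 day, at 10726 and 6065 CPM. It went the other way in smooth muscle-like cells, at 1816 and 7388 CPM, and in other mesenchymal-like cells, at 6567 and 9734 CPM. The part of these genes in the ribosomal protein share was not tested.

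In glia-like cells the difference ran through almost every member. Of 81 measured members, 79 were at least 1.5-fold higher at 1 day and 0 lower, beside 24.6% and 27.5% of all genes, and the median member stood at 1.22 on the log2 scale against 0.05 for all genes. The members not past the fold were Rpl29 and Rpl36al. Rpl12, a base of the stalk, was at 494 CPM in bladder against 2188 CPM at 1 day (2.15 on the log2 scale). Rpl23a, which lies at the exit of the nascent chain tunnel, was at 371 and 1459 CPM (1.97), and Rpl39, inside the same tunnel, at 893 and 3085 CPM (1.79). Large-subunit members had a median of 1.09 and small-subunit members of 1.26.

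In smooth muscle-like cells 63 of 82 measured members were higher and 0 lower, beside 35% and 30.5% of all genes, with a median of 0.89 against 0.12. Rpsa, the small-subunit protein also known as a laminin receptor, was at 1315 CPM in bladder against 4315 CPM at 1 day (1.71), and Rpl32 at 1361 and 3974 CPM (1.55). Other mesenchymal-like cells had 58 members higher and 0 lower, beside 33.5% and 33.8%. Fibroblast-like cells had 37 higher and 0 lower, beside 31.3% and 26.7%, with a median of 0.56 against 0.13. In this class the members ran from -0.17 to 1.98. The count in fibroblast-like cells depends on the fold limit: at a fold of 2 it was 9, and the share of all genes at that fold was not computed.

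In endothelial-like cells 7 members were higher and 1 lower, beside 34.3% and 31.2% of all genes. The 7 were Rplp0, Rpl15, Rpsa, Rps2, Rps28, Rps27l and Rpl7l1, and the lower member was Rps27. In urothelial-like cells 1 of 81 was higher, Rpl7l1, and 2 were lower, Rps6 and Rpl35, beside 26.7% and 12.7% of all genes. The median urothelial member stood at -0.12, where the median of all genes was 0.22.

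**Figure D2:**
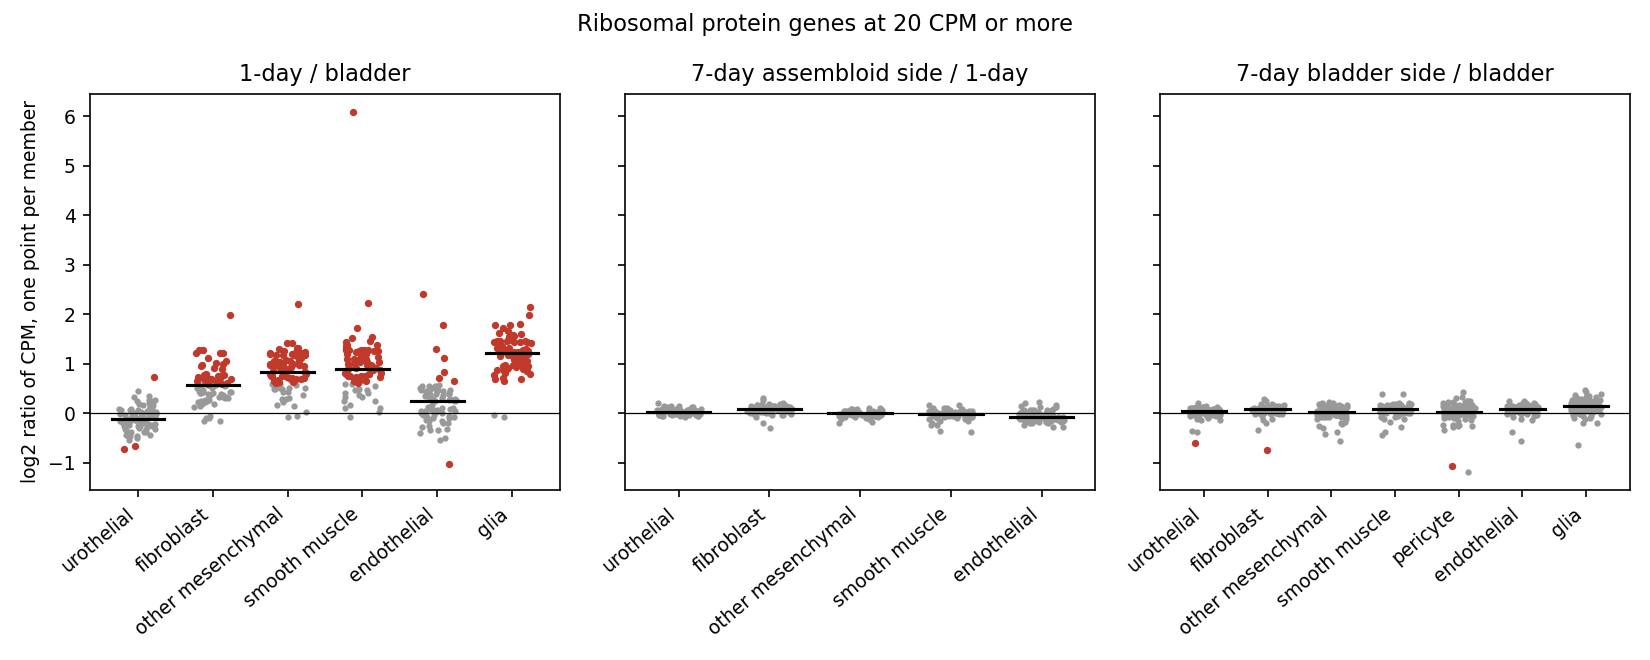
Log2 ratio of CPM (y axis) of each ribosomal protein gene with at least 20 CPM in the higher group, 1 point per gene, by cell class (x axis), for the 1-day assembloid against bladder and for each side of the 7-day library against the library it resembles. Red points are past the 1.5-fold rule, black lines are medians, and the single high point in smooth muscle-like cells is Rpl39l, which had 1 UMI there in bladder. At 1 day the medians run from -0.12 in urothelial-like to 1.22 in glia-like cells, while on the 7-day sides most points lie close to 0.

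Each side of the 7-day library, picked for its likeness to another library over other genes, gave shares close to those of that library. On the assembloid side the share was 27.92% in urothelial-like (627 cells), 24.15% in fibroblast-like (779 cells), 21.59% in other mesenchymal-like (1784 cells), 19.28% in smooth muscle-like (633 cells), 18.53% in endothelial-like (320 cells) and 17.79% in glia-like cells (48 cells). Against the 1-day library, 0 members were past the fold in either direction in urothelial-like, fibroblast-like, other mesenchymal-like, smooth muscle-like or endothelial-like cells. The shares of all genes past it were 0.449% higher and 0.144% lower in urothelial-like, 4.35% and 1.94% in fibroblast-like, 1.43% and 0.483% in other mesenchymal-like, 0.581% and 1.05% in smooth muscle-like, and 4.99% and 4.6% in endothelial-like cells. The ratios of the summed share lay between 0.95 and 1.06 in these 5 classes. The glia-like cells, with 48 on this side, were too few for the comparison, at 17.79% against 15.91% at 1 day. This comparison and the one with bladder share the 1-day library.

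On the bladder side the shares were 30.89% in urothelial-like (1481 cells), 16.73% in fibroblast-like (786 cells), 12.62% in other mesenchymal-like (152 cells), 10.92% in smooth muscle-like (266 cells), 11.93% in pericyte-like (55 cells), 18.43% in endothelial-like (528 cells) and 7.48% in glia-like cells (105 cells). The classes stood in the same order as in bladder. Against bladder, 3 classes had a member past the fold. Rpl36al was lower in urothelial-like cells, at 196 against 300 CPM (-0.61), where 0 members were higher, beside 0.328% of all genes higher and 0.144% lower. It was also lower in fibroblast-like cells, at 93.3 against 157 CPM (-0.75), beside 0.498% and 1.72%. Rpl27 was lower in pericyte-like cells, at 148 against 308 CPM (-1.06), beside 3.2% and 1.13%. In other mesenchymal-like, smooth muscle-like, endothelial-like and glia-like cells 0 members were past the fold, beside 5.66% and 3.59%, 1.64% and 2.12%, 0.938% and 2.62%, and 2.54% and 3.28% of all genes.

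Rpl36al and Rpl27 had log2 ratios below 0 in all 7 classes of the bladder side, though the counting interval of Rpl36al reached 0 in other mesenchymal-like, pericyte-like and glia-like cells and that of Rpl27 in glia-like cells. Rpl27 was at 582 against 757 CPM in bladder in urothelial-like cells, at 255 against 322 CPM in fibroblast-like cells, at 240 against 325 CPM in smooth muscle-like cells and at 307 against 400 CPM in endothelial-like cells. The log2 ratio of Rpl36al was -0.57 in endothelial-like and -0.39 in smooth muscle-like cells. All of these ratios compare 1 library with 1 library, and differences in library preparation cannot be told apart from differences in cells.

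The composition of the family, each member's percent of the UMIs of all 84 genes, removes the shift that all members share. In urothelial-like cells it differed little between 1 day and bladder, with a standard deviation of 0.23 over members on the log2 scale, and it differed more in fibroblast-like (0.36), smooth muscle-like (0.42) and endothelial-like cells (0.44). On the assembloid side of the 7-day library, against 1 day, the same standard deviation was between 0.05 and 0.10 in the 5 largest classes.

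Rps6, the small-subunit protein phosphorylated by S6 kinase, had the lowest composition ratio in urothelial-like cells at 1 day. It gave 1.48% of the family's UMIs in bladder and 0.973% at 1 day (-0.60), or 4423 and 2688 CPM. In bladder Rps6 also had the highest ratio of urothelial-like to fibroblast-like cells (0.99), at 4423 against 1184 CPM. At 1 day fibroblast-like cells held 1821 CPM of Rps6, so the classes lay closer. On the 7-day library's bladder side urothelial-like cells held 4288 CPM, and on its assembloid side 2782 CPM. The urothelial values thus fell into a high pair, bladder and bladder side, and a low pair, 1 day and assembloid side. Each side was picked for its likeness to that library over other genes, so such pairs are not particular to Rps6. In urothelial-like cells 0.449% of all genes were higher and 0.144% lower between the assembloid side and 1 day. Between the bladder side and bladder it was 0.328% and 0.144%.

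Rpl35 followed Rps6 in urothelial-like cells, at 2951 CPM in bladder against 1869 CPM at 1 day (-0.54 in composition), and then came Rpl27 (-0.42), Rplp0 (-0.39) and Rpl36al (-0.36). Rpl15, a large-subunit protein, had the highest ratio (0.56), at 2971 CPM in bladder, 4048 CPM at 1 day, 3882 CPM on the assembloid side and 3167 CPM on the bladder side. Rpl8 (0.46), Rps27l (0.39) and Rpl7a (0.38) were also among the 5 highest. From 1 day to the whole 7-day library Rps6 was highest (0.41), followed by Rpl35, Rplp0, Rpl37 and Rpl14, and Rpl15, Rpl7a, Rpl8 and Rpl13a among the lowest. That comparison shares the 1-day library and holds the bladder-side cells.

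In fibroblast-like cells at 1 day the lowest composition ratios belonged to Rps27 (-0.68), Rps4x (-0.68), Rpl10 (-0.63), Rpl35a (-0.62) and Rpl9 (-0.58). Their levels were in part nearly equal in the libraries while the rest of the family was higher: Rps27 was at 2015 CPM in bladder against 1796 CPM at 1 day, and Rps4x, an X-linked small-subunit gene, at 3988 and 3556 CPM. Rps4x also made up 2.51% of the family in bladder fibroblast-like cells, against 1.35% in urothelial-like cells (-0.90 as urothelial against fibroblast). Among the 5 highest ratios at 1 day were those of Rps27l (1.46), Rpl12 (0.70), Rpl13a (0.70) and Rpl23a (0.69). Rpl12 was at 1433 CPM in bladder, 3340 CPM at 1 day, 3444 CPM on the assembloid side and 1577 CPM on the bladder side. Of the 80 members with at least 100 CPM in both groups, 6 were at least 1.5-fold higher and 4 lower in composition in this class. In urothelial-like cells it was 0 and 1 of 80. Composition is defined within the family, so no share of all genes stands beside these counts.

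Between urothelial-like and fibroblast-like cells of bladder, Rpl32 (0.71), Rpl26 (0.55), Rps18 (0.52) and Rpl36 (0.50) followed Rps6 at the urothelial end. Rpl22l1 (-1.27), Rps4x (-0.90), Rps27l (-0.70), Rpl7a (-0.66) and Rpl10 (-0.45) made up the fibroblast end. From 1 day to 7 days in fibroblast-like cells, the lowest ratios included those of Rps27l (-0.44), Rpl31, Rpl41 and Rps2, and the highest belonged to Rps27 (0.23), Rpl22l1 (0.22), Rps4x, Rpl10 and Rpl21. These shifts were smaller than those from bladder to 1 day.

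**Figure D3:**
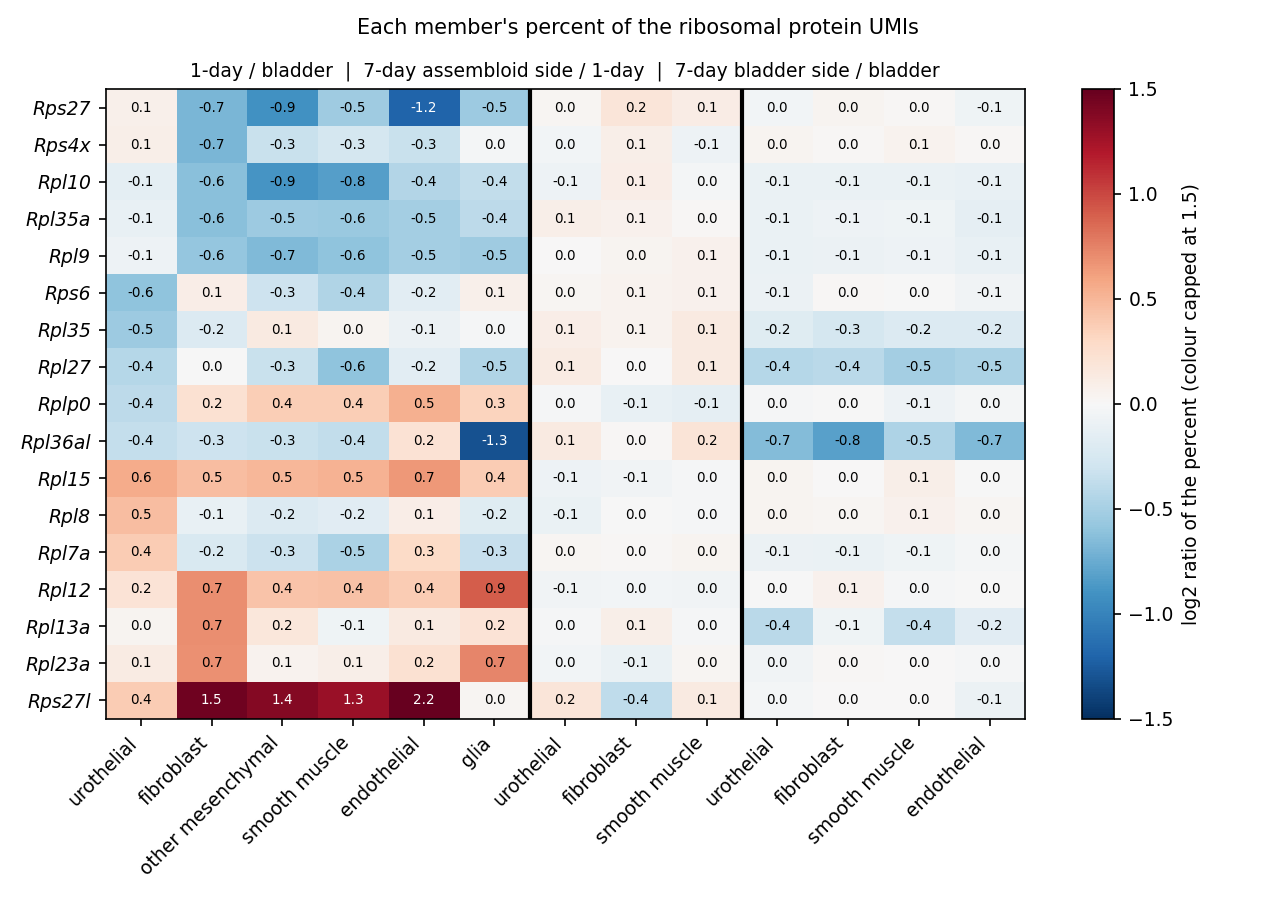
Log2 ratio of each named member's percent of the ribosomal protein UMIs (colour, capped at 1.5), with members as rows and cell classes as columns, for 1 day against bladder and for each 7-day side against the library it resembles. Colour is strong in the 1-day block, where Rps27l reads 1.46 in fibroblast-like and 2.24 in endothelial-like cells and Rps27 and Rps4x read -0.68 in fibroblast-like cells, and faint in the 7-day blocks apart from Rpl36al and Rpl27.

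Rps27l (mm10 chromosome 9, 66946086 to 66949516, plus strand) lay near one level in every bladder class and was higher in every assembloid class. In bladder it was at 298 CPM in urothelial-like, 257 in fibroblast-like, 248 in other mesenchymal-like, 260 in smooth muscle-like, 220 in pericyte-like, 216 in endothelial-like and 267 in glia-like cells. At 1 day it was at 360 CPM in urothelial-like, 1011 in fibroblast-like, 1137 in other mesenchymal-like, 1210 in smooth muscle-like, 1151 in endothelial-like and 640 in glia-like cells. The urothelium thus stood below the other classes of the assembloid. It did so again on the 7-day assembloid side, where urothelial-like cells held 413 CPM and fibroblast-like, other mesenchymal-like, smooth muscle-like and endothelial-like cells 824, 1111, 1297 and 1122 CPM. On the bladder side Rps27l was at 301 CPM in urothelial-like, 270 in fibroblast-like and 216 in endothelial-like cells.

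Its parent Rps27 (chromosome 3, 90212522 to 90213651, minus strand) showed another order. It was at 2656 CPM in bladder endothelial-like cells and 1302 CPM at 1 day, and at 4610 and 4471 CPM in urothelial-like cells, but at 1171 and 1544 CPM in smooth muscle-like and 870 and 1405 CPM in glia-like cells. As a percent of the pair, Rps27l went from 7.52% to 46.9% in endothelial-like, from 18.2% to 43.9% in smooth muscle-like and from 11.3% to 36% in fibroblast-like cells. In urothelial-like cells it was 6.08% and 7.44%. The bladder-side endothelial-like cells of the 7-day library held 2702 CPM of Rps27, near the bladder value.

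Rpl39l (chromosome 16, 10170226 to 10174911, plus strand) was almost absent from bladder, with 6 UMIs in the whole library, against 1875 at 1 day and 1352 at 7 days. Over all cells the 1-day CPM was 213-fold that of bladder, with a counting interval from 97.7 to 581, in libraries that differ in their mix of classes. Within classes the ratio was 52.0 in urothelial-like (interval 11.8 to 475), 93.3 in fibroblast-like (16.4 to 3719), 68.3 in smooth muscle-like (12.2 to 2701) and 12.9 in endothelial-like cells (3.097 to 115), each resting on 1 or 2 UMIs in bladder. At 1 day its level was 23.6 CPM in smooth muscle-like cells (665 UMIs), 14.7 in other mesenchymal-like (1050 UMIs), 10.8 in fibroblast-like (105 UMIs), 8.30 in myeloid-like (6 UMIs), 4.01 in endothelial-like (18 UMIs), 1.63 in urothelial-like (13 UMIs) and 0.258 in glia-like cells (1 UMI). The mesenchymal classes therefore held most of it, and the myeloid-like and glia-like values rest on few molecules. On the 7-day assembloid side the mesenchymal classes again stood highest, at 24.2 CPM in smooth muscle-like, 16.04 in other mesenchymal-like, 6.18 in fibroblast-like, 1.84 in urothelial-like and 0.565 in endothelial-like cells. The bladder side held 6 UMIs in all.

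At least 1 UMI of Rpl39l was found in 207 of 1390 smooth muscle-like cells at 1 day (14.9%, exact interval 13.1% to 16.9%), with up to 13 UMIs in 1 cell. The share was 8.22% in other mesenchymal-like, 6.23% in fibroblast-like and 2.48% in endothelial-like cells. In urothelial-like cells it was 0.629% (9 of 1431), with up to 3 UMIs in 1 cell, and in glia-like cells 0.177% (1 of 566). The median depths of these classes were 4857 and 6579 UMIs against 20023 in smooth muscle-like cells. Free RNA was not measured, and its part in these counts was not tested. The parent Rpl39 (chromosome X, 37082520 to 37085402, minus strand) was at 1402 CPM in bladder against 2999 CPM at 1 day in smooth muscle-like cells, so the paralogue remained a small part of the pair.

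Rpl22l1 (chromosome 3, 28805436 to 28807424, plus strand), the paralogue of Rpl22, was a common transcript in all classes. In bladder it was at 812 CPM in fibroblast-like, 723 in other mesenchymal-like, 716 in pericyte-like, 632 in urothelial-like, 535 in smooth muscle-like, 492 in endothelial-like and 337 in glia-like cells. At 1 day it was at 977 in fibroblast-like, 846 in other mesenchymal-like, 601 in smooth muscle-like, 574 in urothelial-like, 542 in glia-like and 395 in endothelial-like cells. It gave 53.0% of the pair with Rpl22 in bladder pericyte-like cells, 40.8% in fibroblast-like, 28.4% in endothelial-like and 25.1% in urothelial-like cells. In smooth muscle-like cells it was 42.3% of the pair in bladder and 30.5% at 1 day.

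Rpl7l1, a relative of Rpl7, was higher at 1 day in each of the 6 classes present in both libraries. It was at 33.1 CPM in bladder against 54.4 CPM at 1 day in urothelial-like, 36.3 and 87.2 in fibroblast-like, 41.5 and 95.9 in other mesenchymal-like, 51.5 and 96.7 in smooth muscle-like, 45.7 and 156 in endothelial-like, and 48.0 and 82.2 in glia-like cells. On the 7-day bladder side it lay between 29.9 and 66.9 CPM. Rpl36al was at 300 CPM in bladder against 216 CPM at 1 day in urothelial-like cells, 157 and 182 CPM in fibroblast-like cells and 140 and 133 CPM in glia-like cells. Rpl3l had 2, 3 and 12 UMIs in the bladder, 1-day and 7-day libraries, and Rpl10l had 0 in each.

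**Figure D4:**
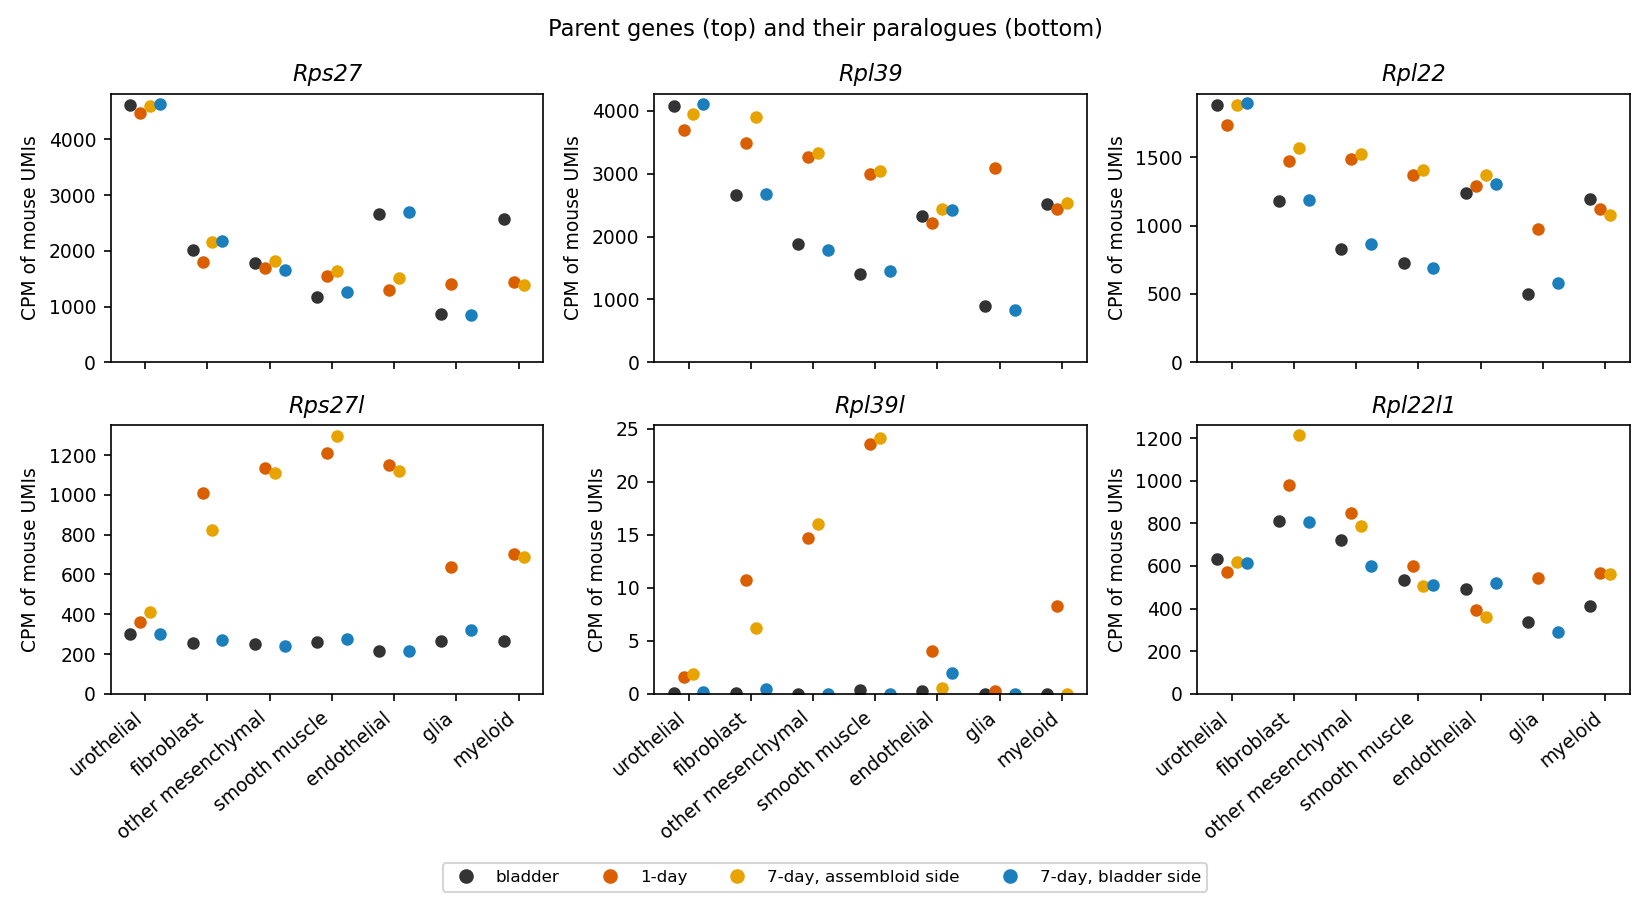
CPM (y axis, from 0) of parent genes in the top row and their paralogues in the bottom row by cell class (x axis), with 1 point for each of bladder, 1 day and the sides of the 7-day library. Rps27l reaches 1210 CPM in 1-day smooth muscle-like cells against 260 in bladder, and Rpl39l reaches 23.6 CPM in that class against 1.63 in urothelial-like cells.

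Cells in the G2 or M phase were set beside the other cells of their class, library by library. A cell was called dividing with at least 5 UMIs from at least 3 genes of a G2/M list after thinning to 5000 UMIs, and shallower cells were left out. In bladder few cells were dividing: 1 urothelial-like cell beside 2587 others, 1 fibroblast-like cell beside 910, 0 of 297 smooth muscle-like cells, which allows a share of up to 1.01%, and 10 endothelial-like cells beside 500 (1.96%). In bladder classes with fewer cells of this depth, 5 other mesenchymal-like cells beside 111 were dividing (4.31%), 2 glia-like cells beside 11 (15.4%) and 1 myeloid-like cell beside 14 (6.67%), so the bladder glia-like share rests on few cells and is not below the 1-day share. At 1 day the share was 30.3% in other mesenchymal-like, 24.8% in smooth muscle-like, 21.6% in fibroblast-like, 10.5% in endothelial-like, 5.22% in urothelial-like and 4.41% in glia-like cells. No bladder class held the 20 dividing cells needed, so levels were compared in the assembloid libraries alone.

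The summed ribosomal protein share was slightly lower or nearly equal in dividing cells. At 1 day it was 21.63% in dividing and 23.16% in other fibroblast-like cells (112 and 407 cells), 21.31% and 22.13% in other mesenchymal-like (1036 and 2386 cells), 26.39% and 27.56% in urothelial-like (35 and 635 cells), 19.65% and 19.72% in smooth muscle-like (326 and 988 cells), 15.55% and 16.08% in glia-like (21 and 455 cells) and 19.73% and 19.51% in endothelial-like cells (41 and 349 cells). At 7 days it was 22.06% and 24.46% in fibroblast-like (97 and 681 cells), 20.80% and 21.94% in other mesenchymal-like (476 and 1256 cells), 18.78% and 19.37% in smooth muscle-like (124 and 487 cells) and 19.003% and 18.59% in endothelial-like cells (30 and 324 cells). The other cells at 7 days include some of the bladder side; on the assembloid side alone they gave 24.53% in fibroblast-like and 18.52% in endothelial-like cells. Dividing cells were the deeper ones, with a median of 23898 UMIs against 18807 in 7-day fibroblast-like cells. Within the middle range of UMIs of each class, the log2 ratio was -0.098 at 1 day and -0.180 at 7 days in fibroblast-like cells, -0.043 and -0.100 in other mesenchymal-like, -0.018 and -0.040 in smooth muscle-like, and at 1 day -0.046 in urothelial-like and -0.023 in endothelial-like cells. In fibroblast-like cells 63 of 81 members lay below 0 on the log2 scale at 1 day and 73 of 81 at 7 days. The medians of all genes there were 0.06 and 0.10. In other mesenchymal-like cells it was 62 and 72 of 81 members, where all genes had medians of 0.02 and 0.03. In smooth muscle-like cells it was 40 and 54 of 82, beside 0.03 and 0.05. In endothelial-like cells it was 31 and 34 of 81, beside 0.02 at both times. At 1 day it was 55 of 81 in urothelial-like (0.17) and 51 of 81 in glia-like cells (0.10). The share of all genes below 0 was not computed, so these counts have only the medians beside them. The endothelial-like difference at 1 day and the smooth muscle-like differences at both times changed sign under another threshold or without thinning.

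**Figure D5:**
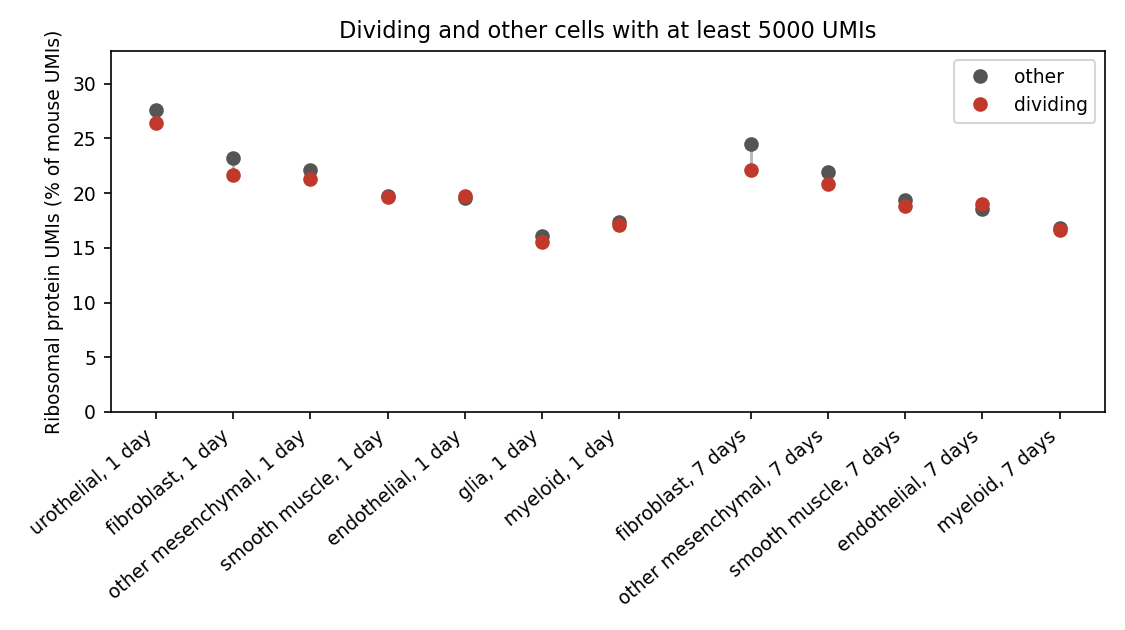
Ribosomal protein share (y axis, percent of mouse UMIs, from 0) of dividing and other cells with at least 5000 UMIs, by cell class and library (x axis). The largest gap is in 7-day fibroblast-like cells, 22.06% against 24.46%, and the endothelial-like pairs are nearly level.

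Few single members differed with division. At 1 day 0 members were past the fold in either direction in fibroblast-like cells, beside 12.2% of all genes higher and 4.48% lower, in other mesenchymal-like cells, beside 9.06% and 1.64%, and in glia-like cells, beside 11.2% and 4.4%. In urothelial-like cells 1 was higher, Rps27l, and 0 lower, beside 16.8% and 7.1% of all genes. It was at 626 CPM in dividing and 359 CPM in other cells (0.80). In smooth muscle-like cells 1 was lower, Rpl39l, at 16.5 against 26.2 CPM, beside 10.6% higher and 3.17% lower. In endothelial-like cells 1 was higher, Rpl22l1, beside 10.5% and 5.85%.

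Rpl22l1 was past the fold with division in endothelial-like cells alone among the classes compared. In endothelial-like cells it was at 578 CPM in dividing and 368 CPM in other cells at 1 day (0.65), and at 589 and 368 CPM at 7 days (0.68, or 0.91 on the assembloid side alone). At 7 days 1 member, Rpl22l1, was higher in that class, beside 11.7% of all genes higher and 8.48% lower. In smooth muscle-like cells, short of the fold, it was at 717 and 557 CPM at 1 day (0.36) and at 676 and 456 CPM at 7 days (0.57). In fibroblast-like cells it was at 948 and 987 CPM at 1 day (-0.06, with an interval that reached 0) and at 977 and 1253 CPM at 7 days (-0.36), where 0 members were past the fold, beside 14% and 5.97% of all genes. In 7-day other mesenchymal-like and smooth muscle-like cells 0 members were past it as well, beside 9.39% and 1.84%, and 11.2% and 2.9%. Differences between these classes were not tested.

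In composition, the members that stood highest in dividing urothelial-like cells at 1 day were Rps27l (0.87), Rpl13a, Rps2, Rpsa and Rpl22l1, and the lowest were Rps27 (-0.39), Rpl38, Rpl36, Rpl27 and Rpl5. In dividing fibroblast-like cells at 1 day Rpl36al (0.27), Rps6, Rpl5 and Rpl12 were among the highest and Rpl37a (-0.19), Rpl37, Rps21, Rps20 and Rpl36a lowest. At 7 days Rps27l (0.42), Rps15, Rpl36al and Rpl31 were among the highest and Rpl22l1 (-0.21), Rpl26, Rps27, Rpl23 and Rps28 lowest. Rpl36al was among the highest at both times in this class.

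Other genes of ribosome production and translation did not all follow the ribosomal protein genes between 1 day and bladder. Of the 25 translation factors, 3 were higher and 0 lower in urothelial-like cells, 10 and 1 in fibroblast-like cells and 19 and 0 in glia-like cells, with medians of 0.13, 0.52 and 0.86 on the log2 scale. By the same rule 26.7% of all genes were higher and 12.7% lower in urothelial-like cells, 31.3% and 26.7% in fibroblast-like, 35% and 30.5% in smooth muscle-like, 34.3% and 31.2% in endothelial-like and 24.6% and 27.5% in glia-like cells, and the counts of these lists are to be read against those shares. In fibroblast-like cells Eif2s2, a subunit of the factor that brings the initiator tRNA, was at 173 and 580 CPM, Nap1l1, a TOP-bearing histone chaperone, at 190 and 555 CPM, and Eef1g, of the elongation factor 1 complex, at 441 and 1181 CPM. Among urothelial-like, fibroblast-like and glia-like cells alone, the factors' medians stood in the same order as those of the ribosomal protein genes.

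Ribosome biogenesis genes, which process ribosomal RNA and assemble the subunits in the nucleolus, had 3 higher and 3 lower of 17 measured in urothelial-like cells (median 0.00), 20 and 1 of 26 in fibroblast-like (0.98), 22 and 0 of 27 in endothelial-like (1.72) and 8 and 2 of 25 in glia-like cells (0.36). The count of higher genes did not exceed the share of all genes in urothelial-like cells and lay near it in glia-like cells. In fibroblast-like cells Nhp2, of the box H/ACA particles, was at 49.6 and 174 CPM, Wdr12 at 12.0 and 45.3 CPM and Bysl at 9.68 and 42.5 CPM. In urothelial-like cells Myc was at 45.4 CPM in bladder against 8.13 CPM at 1 day and Ddx21 at 68.2 and 36.7 CPM. The class with the highest median for biogenesis was thus endothelial-like, where the ribosomal protein share was 1.13-fold, and glia-like cells, with 2.36-fold, had a lower one.

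Mitochondrial ribosomal protein genes, whose products serve the separate ribosomes of mitochondria, had 25 higher and 1 lower of 68 measured in urothelial-like cells (median 0.49), 59 and 0 of 73 in fibroblast-like (0.99), 69 and 0 of 75 in endothelial-like (1.47), 46 and 2 of 73 in smooth muscle-like (0.70) and 20 and 5 of 74 in glia-like cells (0.38). Mrps18b was at 15.6 and 106 CPM in fibroblast-like cells. In glia-like cells the count of higher genes lay near the 24.6% of all genes, and the medians put that class lowest of these 5, whereas cytosolic members had their highest median there.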

How the data were processed

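The authors deposited UMI counts per gene and cell barcode for 3 libraries, whole numbers with no normalization. Cell Ranger 3.1.0 was used, per the file headers, and the builds GRCh38, mm10 and hg38 are named per the submitters' processing notes. The calling of cells and the annotation release are not given in the sources used. Feature IDs mark human or mouse genes, and only mouse genes were used. Mouse barcodes (at least 90% mouse UMIs; 8338, 8899 and 9059 in the bladder, 1-day and 7-day libraries) entered with 500 or more genes and less than 20% of UMIs from mitochondria, unless Scrublet called them doublets, as it did 238, 280 and 202 cells (3.39%, 3.28% and 2.41%).

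A cell took the class whose markers held at least 5 UMIs from at least 3 genes and at least 3 times those of the next list. Cells with none were tried for the collagen list, which had to hold 3 times the UMIs of each non-mesenchymal list, a detail set after the data were seen. Of the kept cells, 367, 2063 and 1354 lay near the margin. Counts were summed per class and library. CPM is the share of mouse UMIs times 1000000. A member was counted as higher or lower with at least 20 CPM in the higher group, a fold of 1.5 and an exact 95% conditional binomial interval excluding 1; classes needed 50 cells, and dividing cells 20. Shares have Clopper-Pearson intervals, and a count of 0 was read as allowing 3 counts. The 7-day cells were split by 30 nearest neighbours in 30 principal components of 2000 variable genes, with at most 5% or at least 95% bladder neighbours.

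The text names the paralogue pairs, the 5 highest and 5 lowest members by composition (at least 100 CPM) in each main comparison, the 5 members with most UMIs and up to 3 genes per other list; members alone past a fold, and those leading a class, were named after their values were seen. Members and lists were chosen with earlier results of these data known. Rps4l is not analysed here. Some members that the rule names are not reported here. The layers of the urothelium and leaving out shared barcodes in bladder and 1-day cells were added after seeing the data. Alternatives were other thresholds, thinning to 2500 UMIs, means over cells, a stricter filter and keeping doublets. Scripts were tested on simulated data. Software: scanpy 1.11.5 (with anndata 0.12.19), scipy 1.17.1 for intervals, scikit-learn 1.9.0 for neighbours, and numpy 2.4.6, matplotlib 3.10.9 and pandas 2.3.3 under Python 3.11.15.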

Additional observations from a re-analysis of the deposited data

Results flagged for a closer look

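The ribosomal protein share differed between 1 day and bladder in opposite directions in different classes. On the log2 scale it was -0.12 in urothelial-like cells, against 0.17 in endothelial-like, 0.52 in fibroblast-like, 0.82 in other mesenchymal-like, 0.93 in smooth muscle-like and 1.24 in glia-like cells. Each class has 1 library on either side, so the difference between classes was not tested.

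Rpl22l1 was lower in dividing than in other fibroblast-like cells at 7 days (-0.36) and higher in dividing endothelial-like (0.68) and smooth muscle-like cells (0.57) of the same library. The fibroblast-like and smooth muscle-like values were short of the 1.5-fold rule, and at 1 day the fibroblast-like value was -0.06. The difference was not tested either, since cells of 1 library are not replicates.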

How the results depend on the processing

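All 56 alternatives for the share at 1 day against bladder kept their sign. In urothelial-like cells (-0.12) the value was -0.099 as a mean over cells, -0.080 after thinning, -0.133 without mitochondrial genes, -0.118 with a margin of 10, -0.138 under 10% mitochondrial UMIs, -0.123 with doublets kept, -0.090 with Krt5 cells alone and -0.210 with cells of neither keratin group. In fibroblast-like cells (0.52) it was 0.496, 0.484, 0.535, 0.496 and 0.524 under the first 4 of these and with doublets kept. The bladder range of 4.43-fold was 4.79 by medians over cells, 4.505 without mitochondrial genes and 4.55 with a margin of 10. Leaving out cells with shared barcodes left the share ratios within counting error (0.52 in fibroblast-like cells). At a fold of 2, 9 members instead of 37 were higher in fibroblast-like, 34 instead of 63 in smooth muscle-like, 4 instead of 7 in endothelial-like and 0 instead of 1 in urothelial-like cells. The share of all genes past a fold of 2 was not computed, so these counts show only the dependence on the threshold. Rpl39l in smooth muscle-like against urothelial-like cells at 1 day was 3.86 on the log2 scale and 5.42 with a margin of 10.

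The 7-day against 1-day share of fibroblast-like cells was near 0 (0.033) and turned negative as a mean over cells (-0.152), after thinning (-0.079), with a margin of 10 (-0.0052) and on the bladder side (-0.446). It was 0.041 with 1000 genes, 0.029 under 10% mitochondrial UMIs, 0.030 with doublets kept and 0.083 on the assembloid side. That the 7-day library is a mix shows in the values by side. As a mean over cells the share was 23.94% on the assembloid side and 16.92% on the bladder side, against 22.66% at 1 day. After thinning these were 23.98%, 16.49% and 22.64%. The part of the mix in the other values was not tested. The other mesenchymal-like value turned from -0.022 to 0.0055 with a margin of 10.

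For dividing against other cells at 1 day, fibroblast-like cells (-0.098) gave -0.126 with 10 UMIs from 5 genes and -0.062 without thinning. Smooth muscle-like cells turned from -0.0056 to 0.0089 without thinning, and at 7 days from -0.045 to 0.037. Endothelial-like cells turned from 0.016 to -0.0010 under the stricter rule and to -0.023 within the middle range of UMIs. The cause was not tested.

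No paired analysis was possible because there is 1 library per group. Depth limits Rpl39l, Rpl3l and all classes under 100 cells, and no value separates a library from its group.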

Other observations

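Lymphocyte-like cells, too few to enter a comparison, gave the highest ribosomal protein share of bladder at 33.61%, over 9 cells.

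The stress genes of translation control, induced by amino acid shortage or unfolded proteins, were not level between 1 day and bladder. Asns, the asparagine synthetase, was at 3.80 CPM in bladder against 237 CPM at 1 day in fibroblast-like cells, and Trib3 at 3.57 and 31.95 CPM. Ppp1r15a, which restores translation after stress, was lower at 1 day, at 336 and 35.02 CPM in fibroblast-like and 146 and 49.6 CPM in urothelial-like cells. Ddit4, an inhibitor of mTOR, was at 9.67 and 59.2 CPM in urothelial-like cells. Of the measured genes of this list, 5 were higher and 2 lower of 9 in fibroblast-like cells and 4 and 3 of 8 in urothelial-like cells, beside 31.3% and 26.7% of all genes in fibroblast-like and 26.7% and 12.7% in urothelial-like cells.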
